A study of Drosophila melanogaster with 3 samples.

Results

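The 40 nuclear genes whose symbols begin with ND-, the Drosophila names for subunits of respiratory complex I, were taken from the 13945 protein-coding genes on the arms 2L, 2R, 3L and 3R, the X and chromosome 4 by a rule on the symbol, which uses no measured value. Their promoters were examined in ChIP-seq of CG12155-eGFP, the product of the Drosophila gene CG12155 with eGFP fused at its C-terminus. Mixed-sex whole embryos of the transgenic CG12155-GFP line, 0 to 24 hours old, were sampled as 1 group of 3 biological replicates, chromatin was sonicated, and tagged protein was precipitated with an antibody against GFP. There was no second genotype, stage or treatment, and whole embryos mix many tissues and ages, so a summit cannot be placed in a cell type. The authors deposited an optimal list of 5202 peaks, selected for agreement between replicates by the irreproducible discovery rate (IDR), a relaxed list of 30000 regions for the pooled replicates, and relaxed lists of 30000, 29643 and 30000 regions for replicates 1, 2 and 3. A gene was called bound when the summit (the strongest position) of an optimal peak lay within 500 bp of any of its transcription start sites (TSS). Regions were ranked by the authors' signal within each list, rank 1 being the strongest, and ranks rather than signals were compared because the signal scale differs between lists. The files give no read counts, so the depth behind each rank is unknown.

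Complex I (NADH:ubiquinone oxidoreductase) is the entry point for electrons from NADH in the mitochondrial respiratory chain. A matrix arm holds the N module, which oxidizes NADH, and the Q module, which passes the electrons to ubiquinone over a chain of iron-sulfur clusters. A membrane arm pumps protons, and its core subunits are made from mitochondrial DNA, so the nuclear genes supply the matrix arm and the accessory subunits of both arms. Genes were placed in these modules by their mammalian orthologues. Members named as another member with L, or L and a digit, added are duplicate copies of it and were kept apart as paralogs.

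Of the 40 genes, 12 were bound (30.0%, 95% Wilson interval 18.1 to 45.4%), against 26.2% of all protein-coding genes. When each replicate's own 5202 strongest regions were used, 13, 11 and 12 of the genes had a summit, a share of 30.0% ± 2.50 (SD, n = 3), and the share of all genes was 25.6% ± 0.736 (SD, n = 3). The share of complex I genes exceeded the share of all genes by 3.85 percentage points in the optimal list and by 4.36 ± 1.82 points (SD, n = 3) in the replicates, higher in 3 of 3. This excess is small beside the counting interval of the 40 genes, which holds the share of all genes. It was 1.30 points without replicate 1 and 10.4 points with a window of 200 bp. Wilson intervals here cover counting error only, and genes are not replicates.

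The bound genes were spread over the optimal list, with 6 near its top. Among the 5202 optimal peaks, 6 of the 40 genes had a summit of rank 1 to 1000, against 6.93% of all genes, and the median best rank of the 12 bound genes was 1375, against 2132 for all bound genes and 1834 for all bound head-to-head genes. The 12 ranks ran from 373 to 4788, and the 4 weakest lay between 4104 and 4788. All 6 genes in the top 1000 were arranged head-to-head with another gene, that is, with a start on the opposite strand and upstream at 500 bp or less. Of all 967 genes with a summit of that rank, 601 were head-to-head, and so were 10 of the 12 bound members. In the relaxed pooled list, which holds background by design, 28 of the 40 genes had a region (70.0%), against 54.2% of all genes. In at least 1 of the 4 relaxed lists 33 of the 40 had a region (82.5%), against 67.1%.

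**Figure D1:**
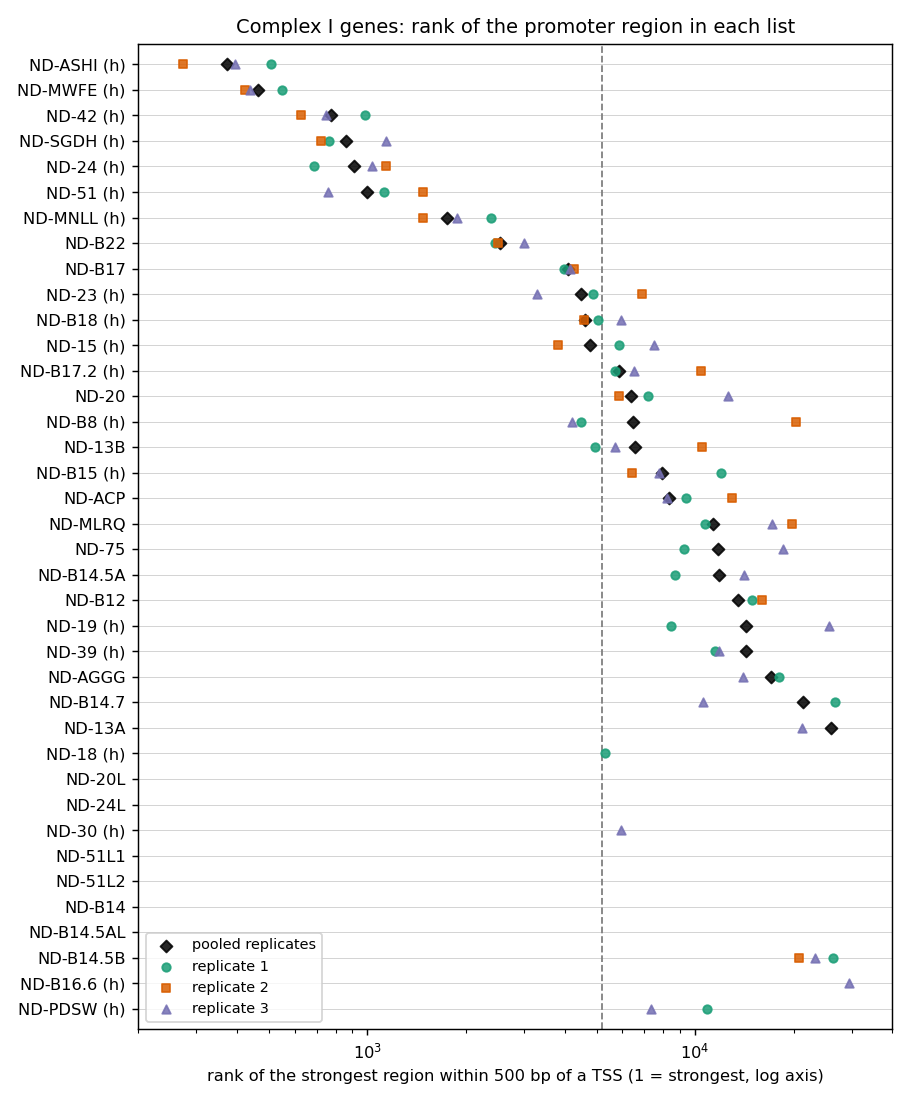
Rank (log axis, 1 = strongest) of the strongest region with a summit within 500 bp of a TSS for 38 of the 40 complex I genes, in the pooled list (diamonds) and in replicates 1 to 3 (circles, squares, triangles). (h) marks head-to-head genes, the dashed line is rank 5202, and a gene with no symbol in its row has no region in any list. The 12 bound genes lie left of the line in the pooled list, and below it most genes scatter more between replicates.

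Sequence at the strongest summits is shown because these are the positions on which the calls rest. The sequences below are read on the strand of the complex I gene, 5′ to 3′, from 50 bp before to 50 bp after the strongest summit in the RefSeq copy of the Release 6 genome (dm6 coordinates), with annotated UTR bases left out. Capitals mark the short words whose counts are given with the results on sequence. ND-ASHI, ND-42, ND-SGDH, ND-51, ND-MNLL and ND-23 are head-to-head, ND-B17 is not, and ND-24L is the unbound paralog of ND-24, for which the bases before its start are given.
ND-ASHI (chrX:6679347-6679447, minus strand): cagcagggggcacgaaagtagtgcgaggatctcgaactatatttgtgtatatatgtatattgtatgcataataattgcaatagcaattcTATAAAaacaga
ND-42 (chr3R:22027481-22027559, plus strand): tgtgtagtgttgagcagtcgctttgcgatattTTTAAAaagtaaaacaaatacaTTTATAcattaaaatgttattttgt
ND-SGDH (chr3L:12138585-12138679, minus strand): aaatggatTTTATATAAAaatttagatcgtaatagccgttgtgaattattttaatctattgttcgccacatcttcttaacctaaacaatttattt
ND-51 (chr2L:6062849-6062949, minus strand): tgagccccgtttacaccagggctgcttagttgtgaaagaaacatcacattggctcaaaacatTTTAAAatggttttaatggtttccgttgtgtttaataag
ND-MNLL (chrX:7893827-7893927, minus strand): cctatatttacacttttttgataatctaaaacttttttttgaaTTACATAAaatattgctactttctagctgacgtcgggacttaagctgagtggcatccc
ND-B17 (chr2L:15751157-15751257, minus strand): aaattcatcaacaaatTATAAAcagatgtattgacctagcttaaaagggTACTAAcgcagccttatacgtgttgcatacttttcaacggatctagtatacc
ND-23 (chr3R:15837179-15837279, minus strand): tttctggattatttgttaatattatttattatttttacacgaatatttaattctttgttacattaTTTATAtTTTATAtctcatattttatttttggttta
ND-24L (chr3L:17320812-17320912, minus strand): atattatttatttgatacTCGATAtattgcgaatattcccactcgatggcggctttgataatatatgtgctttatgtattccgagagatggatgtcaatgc

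Membrane arm accessory subunits, small proteins around the proton-pumping arm, held 9 of the 12 bound genes: 9 of 17 were bound (52.9%, Wilson interval 31.0 to 73.8%), and 47.1% ± 5.88 (SD, n = 3) had a summit among the strongest regions of a replicate. The share of all genes was 26.2%, and 11 of the 17 were head-to-head, a class bound at 52.2% in the genome. Of those 11, 7 were bound, and of the other 6, 2. ND-ASHI (FBgn0029888, dm6 chrX:6677262-6679118, minus strand; orthologue of NDUFB8) had the strongest peak of all, rank 373 in the pooled list and 506, 273 and 395 in replicates 1, 2 and 3. ND-MWFE (FBgn0085468, chr2R:13158666-13160190, plus strand; orthologue of NDUFA1) ranked 465, and 550, 424 and 438 in the replicates. ND-42 (FBgn0019957, chr3R:22027709-22029393, plus strand; orthologue of NDUFA10) ranked 773, and 983, 627 and 749. For these genes every replicate placed the region among its 1000 strongest.

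ND-SGDH (FBgn0011455, chr3L:12137496-12138584, minus strand; orthologue of NDUFB5) ranked 857 in the pooled list and 762, 723 and 1138 in the replicates. ND-MNLL (FBgn0029971, chrX:7893053-7893798, minus strand; orthologue of NDUFB1) ranked 1753, and 2385, 1478 and 1874. Both remained among the 5202 strongest regions of every replicate. ND-B22 (FBgn0032511; orthologue of NDUFB9) ranked 2529, and 2458, 2504 and 2994, and ND-B17 (FBgn0001989; orthologue of NDUFB6) ranked 4104, and 3973, 4267 and 4158. These last were the only bound genes of the 40 that were not head-to-head, and their replicate ranks stayed close together.

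The weakest bound genes of this arm were the least reproducible. ND-B18 (FBgn0030605; orthologue of NDUFB7) ranked 4607, and 5053, 4595 and 5957, so replicate 3 placed it outside its 5202 strongest. ND-15 (FBgn0031228; orthologue of NDUFS5) ranked 4788, and 5836, 3816 and 7480, so only replicate 2 held it among the strongest. Of the 12 bound genes, 9 were held by all 3 replicates, 2 by 2 and 1 by 1.

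The matrix arm had 3 bound genes among 15 subunits (20%, Wilson interval 7.05 to 45.2%), and 5, 2 and 5 of the 15 in replicates 1, 2 and 3 (26.7% ± 11.5, SD, n = 3), against 26.2% of all genes. Of its genes 9 were head-to-head, and the 3 bound genes were among them. Its interval overlaps that of the membrane arm. In the N module core, 2 of 3 genes were bound. ND-24 (FBgn0030853, chrX:17632089-17633509, plus strand; orthologue of NDUFV2, which carries an iron-sulfur cluster) ranked 907 in the pooled list and 689, 1140 and 1031 in the replicates. ND-51 (FBgn0031771, chr2L:6060842-6062757, minus strand; orthologue of NDUFV1, which binds NADH and its flavin cofactor) ranked 997, and 1120, 1475 and 760. ND-24 and ND-51 encode the subunits that receive electrons from NADH, and both were placed among the strongest 5202 regions in every replicate. Their N module core neighbour ND-75 (orthologue of NDUFS1) was not bound, with rank 11752 in the pooled list.

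In the Q module core, 1 of 4 genes was bound. ND-23 (FBgn0017567; orthologue of the iron-sulfur subunit NDUFS8) ranked 4496, and 4872, 6901 and 3281 in the replicates, so replicate 2 did not hold it among its strongest. ND-20 (orthologue of NDUFS7) ranked 6368, and 7161, 5854 and 12635. These ranks put it outside the 5202 strongest regions of the pooled list and of every replicate. ND-30 (orthologue of NDUFS3) had no pooled region and was listed only in replicate 3, at rank 5952.

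None of the 4 N module and 4 Q module accessory genes was bound, a count of 0 of 8 that allows a share of up to 37.5% (limits for a count of 0 are 3 counts of the total, for counting error only). The share of all genes, 26.2%, lies within that limit, so the count is not read as a trait of these accessory genes. ND-B17.2 (orthologue of NDUFA12) was the nearest to the optimal list, at rank 5871 in the pooled list and 5705, 10428 and 6499 in the replicates. ND-B8 (orthologue of NDUFA2) ranked 6455 in the pooled list but 4482, 20270 and 4198 in the replicates, and ND-13B (orthologue of NDUFA5) ranked 6537, and 4958, 10474 and 5701. Thus ND-B8 entered the 5202 strongest regions of replicates 1 and 3, and ND-13B those of replicate 1. Replicate 2 added no unbound gene of the 40. ND-ACP, the acyl carrier protein (rank 8332), and ND-MLRQ, the orthologue of NDUFA4 (rank 11367), were also unbound. NDUFA4 was later assigned to complex IV in mammals, and ND-MLRQ is counted here by its symbol.

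The 6 paralogs, among them ND-20L, ND-24L, ND-51L1, ND-51L2 and ND-B14.5AL, had no summit within 500 bp in any of the 4 relaxed lists. They made up 6 of the 7 members with no region at all, and the other was ND-B14, an accessory subunit of the Q module. In the genome 32.9% of all genes, and 40.8% of genes that are not head-to-head, had no region in any list. The 0 of 6 bound allows a share of up to 50%. The parents of ND-24L, ND-51L1 and ND-51L2 were bound at ranks 907 and 997, and ND-20 and ND-B14.5A, the parents of ND-20L and ND-B14.5AL, had pooled regions at ranks 6368 and 11800. The nearest optimal summit lay 32168 bp from ND-24L, 4433 bp from ND-51L1 and 7188 bp from ND-51L2. None of the 6 was head-to-head. Without the paralogs 12 of 34 members were bound (35.3%, Wilson interval 21.5 to 52.1%), 9.14 points above all genes. The paralogs were left out after the data were seen, and leaving out unbound genes can only raise the share. Duplicate copies among all genes were kept.

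Most bound members were head-to-head. This arrangement was found for 20 of the 40 genes (50%), against 27.4% of all protein-coding genes, and no member was the partner of another member. Of the 20 head-to-head members 10 were bound (50%, Wilson interval 29.9 to 70.1%), against 52.2% of all head-to-head genes. Of the other 20 members 2 were bound (10%, Wilson interval 2.79 to 30.1%), against 16.4% of all genes that are not head-to-head. The gap between the classes was 40.0 points in the optimal list and 35.0, 35.0 and 40.0 points in replicates 1, 2 and 3, or 36.7 ± 2.89 points (SD, n = 3).

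Within each class the share of complex I genes with an optimal summit of any rank was not above that of the genome. Head-to-head members averaged 48.3% in the replicates and all head-to-head genes 50.9%, a difference of −2.60 ± 2.50 points (SD, n = 3). The other members averaged 11.7% and all other genes 16.1%, a difference of −4.45 ± 2.27 points (SD, n = 3). This class holds all 6 paralogs. Without them 2 of its 14 members were bound (14.3%, against 16.4%). The replicate mean was then 16.7% ± 4.12 (SD, n = 3), no longer below the 16.1% of all other genes. Were each class of members bound at its class's share in the genome, 13.7 of the 40 genes would be bound, against the 12 found. The order was different for summits of rank 1 to 1000 in the head-to-head class. There 6 of the 20 members had one, against 601 of all 3815 head-to-head genes. Of the other 20 members 0 did, against 366 of 10130. With the weaker calls, all 20 head-to-head members had a region in at least 1 relaxed list, against 88.1% of all head-to-head genes. Of the other 20 members 13 did (65.0%), against 59.2%. In the relaxed pooled list 16 of the 20 head-to-head members had a region, against 78.8% of all head-to-head genes. Of the other 20 members 12 did, against 44.9%. No interval was set on these shares, so no difference from the genome is concluded from them.

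**Figure D2:**
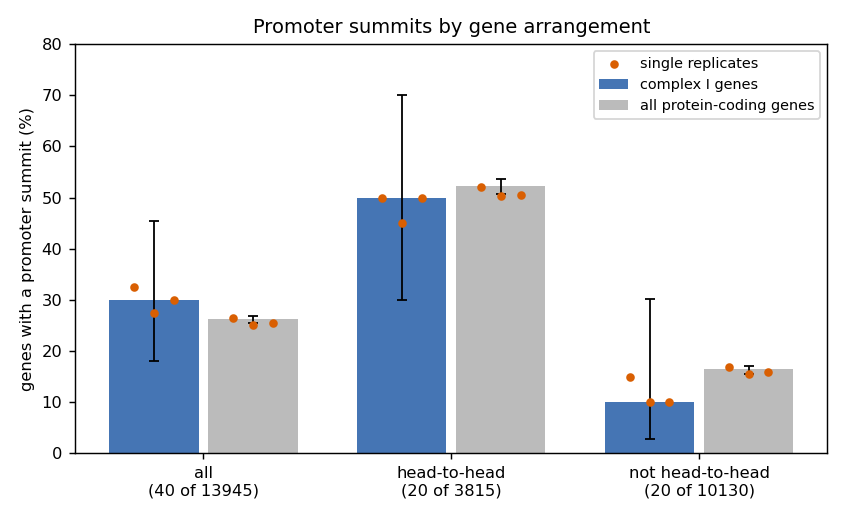
Percent of genes with an optimal summit within 500 bp of a TSS, for complex I genes (blue bars) and all protein-coding genes (grey bars), overall and by arrangement. Error bars are 95% Wilson intervals for counting error, and orange points are shares from the 5202 strongest regions of replicates 1, 2 and 3. The bars are 50% and 52.2% for head-to-head genes and 10% and 16.4% for the others.

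All 10 bound head-to-head members shared every one of their optimal summits with the partner gene, so the peak cannot be assigned to either gene of a pair. The partners with a known role in mitochondria were Fum1 (fumarase, beside ND-ASHI) and Cchl (cytochrome c heme lyase, beside ND-42). The others were TppII (tripeptidyl peptidase, beside ND-MWFE), RhoGAP68F (a GTPase-activating protein, beside ND-SGDH), corolla (a protein of the synaptonemal complex, beside ND-24), CG13994 (beside ND-51), p115 (a Golgi tethering factor, beside ND-MNLL), spn-E (a helicase of the piRNA pathway, beside ND-23), hiw (an E3 ubiquitin ligase of the synapse, beside ND-B18) and Pus10 (a pseudouridine synthase, beside ND-15). CG45089 has a start at the same position and on the same strand as ND-MNLL, 79 bp from the summit.

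The strongest summit lay between the nearest starts of member and partner in 9 of 10 pairs. In 5 pairs it was nearer to the complex I gene and in 5 nearer to the partner. These counts were not made for all bound head-to-head genes, so they are not read as a trait of complex I genes. Fragments were 200 to 800 bp long and the peaks of bound members 161 to 430 bp wide. Distances that differ by a few bp therefore do not place a summit nearer to 1 gene. The ND-42 summit lay 200 bp upstream of ND-42 and 29 bp from the start of Cchl, and the ND-MWFE summit 173 bp upstream of ND-MWFE and 48 bp from TppII. The ND-SGDH summit lay 45 bp upstream of ND-SGDH and 239 bp from RhoGAP68F, and the ND-B18 summit 34 bp and 456 bp from ND-B18 and hiw. ND-15 and Pus10 start 30 bp apart, with the summit 18 bp from ND-15 and 12 bp from Pus10. The exception was ND-24, whose summit lay 59 bp downstream of its nearest start in the 5′ UTR, beyond the 42 bp between that start and corolla. Another ND-24 start lay 274 bp from the start of corolla, and the summit lay between those starts. The ND-ASHI summit lay in an intron of Fum1, 279 bp from the nearest ND-ASHI start and 243 bp from the nearest Fum1 start. Those starts were 522 bp apart, and the starts that made the genes head-to-head, 164 to 263 bp apart, lay near its second summit.

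**Figure D3:**
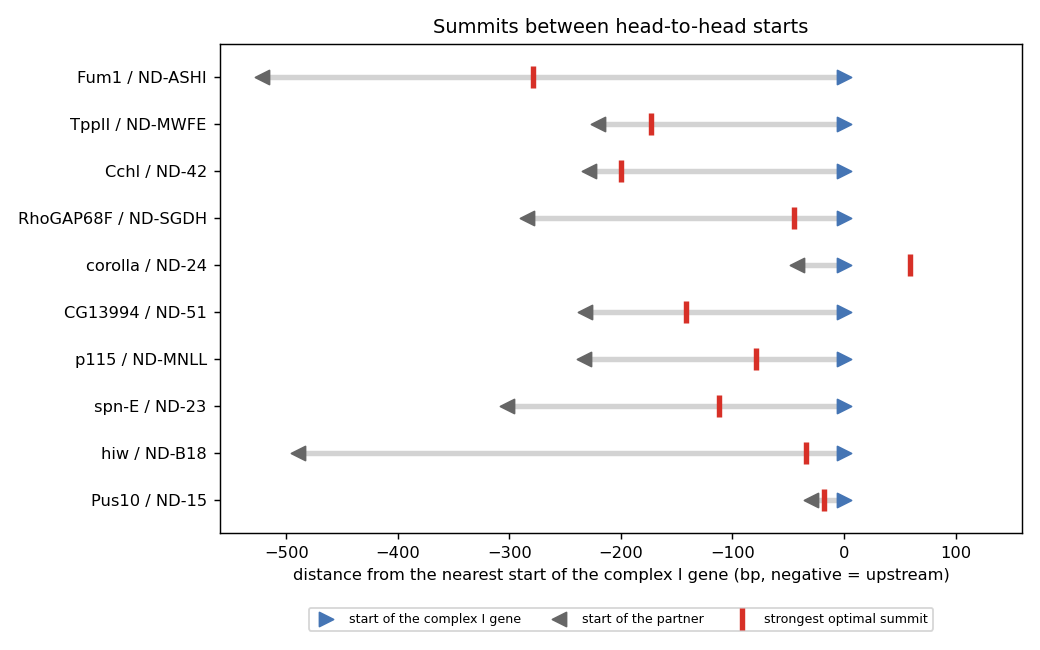
Position of the strongest optimal summit (red bars) on the horizontal axis, in bp from the nearest start of the complex I gene (blue, at 0), with the nearest start of the partner (grey) for the 10 bound head-to-head pairs. In 9 pairs the summit falls between the starts, and in ND-24 it lies 59 bp downstream.

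ND-ASHI, ND-42 and ND-SGDH each had a second optimal summit within 500 bp of a start. For ND-ASHI it ranked 4384 and lay 18 bp upstream of another start of the gene. For ND-42 it ranked 2812 and lay 3 bp downstream of the start, and for ND-SGDH it ranked 3557 and lay 253 bp upstream. The 15 gene and summit pairs had a median distance of −79.0 bp from the TSS (range −279 to 59, negative being upstream), against −122 bp for all 4172 pairs, and 86.7% were upstream, against 86.8% of all. The members' median was −129 bp without replicate 1, −112 bp without replicate 2 and −104 bp without replicate 3. The strongest summit of the 12 bound genes was intergenic in 6, in a 5′ UTR in 4 and in an intron of the partner in 2. No bound gene depended on the outer part of the window: the largest distance from a bound gene to its nearest optimal summit was 173 bp, and the nearest summit outside the window was 780 bp from ND-B14.5B, followed by 1515 bp from ND-39.

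The smallest gap between starts had a median of 214 bp (21.0 to 426) in the 10 unbound head-to-head members and 230 bp (30.0 to 304) in the 10 bound, and the ranges overlapped. ND-39 (orthologue of NDUFA9) was unbound although its partner ZnT77C, a zinc transporter gene, was bound at rank 1451. ND-B16.6 (orthologue of NDUFA13) lies beside kdn, the citrate synthase gene, whose region ranked 5214 in the pooled list, 12 places below the optimal list, and ND-B16.6 itself was listed only in replicate 3 at rank 29381. ND-18 (orthologue of NDUFS4), beside the exoribonuclease gene pcm, was listed only in replicate 1, at rank 5307. ND-PDSW (orthologue of NDUFB10), beside msl-2 of the dosage compensation complex, had ranks 10837 and 7331 in replicates 1 and 3 and no region in the others.

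Short words were searched on both strands of the full windows of 101 bp at 15 member summits and at all 2932 optimal summits at promoters. The median GC content was 34.7% at member summits and 35.6% at all. The 5 words of 6 letters most enriched at the 5187 optimal summits away from the members, promoter or not, relative to their flanks were looked up in the members. The word CGATAG was at 0 of 15 member summits, against 12.5% of all promoter summits. The word TATCGA was at 0 of 15, against 430 of the 2932, and the word ACTAGT also at 0 of 15, against 2.32%. With 15 windows a count of 0 allows a share of up to 20%, so none of these absences is beyond counting error. TACTAA was at 2 of 15 member summits, those of ND-ASHI and ND-B17, against 7.37% of all. TTTAAA was at 4 of 15 (26.7%), against 19.1%, at ND-ASHI, ND-42, ND-24 and ND-51.

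Among known words, the DNA replication-related element TATCGATA, which contains TATCGA, was at 0 of 15 member summits against 4.54% of all promoter summits. The core promoter word GGTCACAC (motif 1) was at 0 against 2.42%. The E-box CAGCTG was at 4 of 15 (26.7%, Wilson interval 10.9 to 52.0%), those of ND-42, ND-B22, ND-B18 and ND-15, against 5.56% of all. The word TATAAA or its complement TTTATA was at 7 of 15 (46.7%, Wilson interval 24.8 to 69.9%), against 18.8%. For both words the interval of the members lies above the share of all promoter summits, but 13 words or word groups were searched and 3 genes gave 2 windows each, and no test was made.

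A respiratory gene element, searched as TTACGTAA or TTATATAA or else TTACATAA, was at 2 of 15 member summits, ND-SGDH and ND-MNLL (13.3%, Wilson interval 3.74 to 37.9%), against 2.05% of all, which also lies below the interval. In ND-SGDH it overlaps TATAAA and TTTATA, as the unbroken capitals show. The words GCGCATGC, the core of the NRF-1 site of mammals, TGACGTCA, the cyclic AMP response element, and GAGAGAG were each at 0 of 15 member summits, against 0.205%, 0.102% and 1.77% of all.

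In the promoters as a whole, from 250 bp before to 50 bp after every start of a gene, CAGCTG was in 18 of 40 members (45.0%) against 22.3% of all genes. Genes with more starts had more sequence searched. CAGCTG was in 8 of the 12 bound and 10 of the 28 unbound members, and in 31.5% of all bound genes. TATCGATA was in 9 members (22.5%) against 10.2%, although no member summit window held it. It was in 5 of the 12 bound and 4 of the 28 unbound members, and in 17.4% of all bound genes. GGTCACAC was in 9 members (22.5%) against 8.71%, and the respiratory gene element in 8 (20%) against 6.40%. TATAAA was in 26 members (65.0%) against 51.2%. It was in 11 of the 12 bound and 15 of the 28 unbound members, and in 55.4% of all bound genes. GGTCACAC was in 3 of the 12 bound and 6 of the 28 unbound members, and the respiratory gene element in 3 and 5. CGATAG was in 3 and 6, TATCGA in 7 and 12, ACTAGT in 0 and 2, TACTAA in 3 and 7, and TTTAAA in 9 and 18. The 28 unbound members include the 6 paralogs, and no test was made of any of these splits. GCGCATGC and GAGAGAG were in none of the 40 promoters, against 1.46% and 9.08% of all genes, and 0 of 40 allows a share of up to 7.50%. A word match is a description of these letters only.

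The other oxidative phosphorylation complexes were examined in the same way. Complexes II, III, IV and V together had 20 of 53 nuclear genes bound (37.7%, Wilson interval 25.9 to 51.2%), and 35.2% ± 4.75 (SD, n = 3) in the replicates. The counts were 2 of 6 in complex II (succinate dehydrogenase), 3 of 13 in complex III (cytochrome bc1 complex), 7 of 17 in complex IV (cytochrome c oxidase) and 8 of 17 in complex V (ATP synthase). All intervals overlap that of complex I. Head-to-head genes of complexes II to V were bound in 10 of 20, the count also found in complex I, against 52.2% of all head-to-head genes. The others were bound in 10 of 33, against 2 of 20 in complex I and 16.4% of all such genes. Without duplicate copies the head-to-head counts were 10 of 17 in complexes II to V and 10 of 20 in complex I. The counts of the others were then 10 of 18 and 2 of 14.

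**Figure D4:**
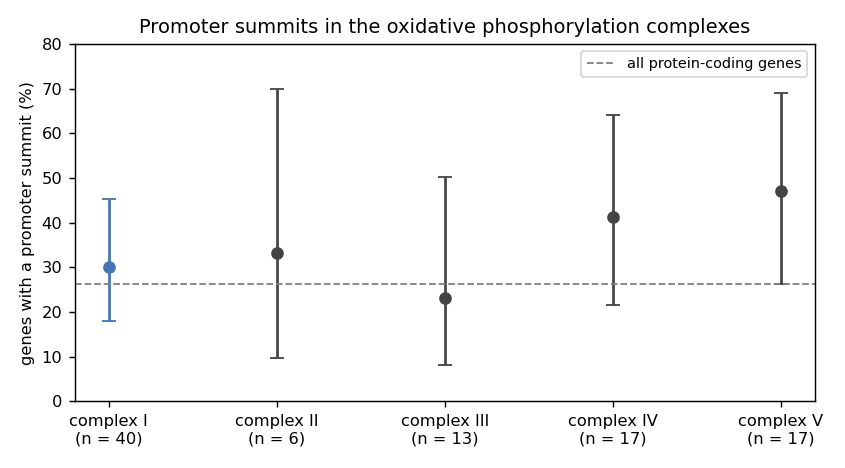
Percent of genes with an optimal summit within 500 bp of a TSS in complex I (blue) and complexes II to V (black), with 95% Wilson intervals for counting error. The dashed line is the share of all protein-coding genes, 26.2%. The points run from 23.1% in complex III to 47.1% in complex V, and all intervals overlap.

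The strongest promoter regions of complexes II, III and IV, but not of complex V, lay above the best of complex I. Cyt-c1 of complex III ranked 109 in the pooled list, SdhC of complex II 177 and COX6B of complex IV 262, against 373 for ND-ASHI. The strongest of complex V, blw, which encodes the alpha subunit, ranked 728. Both cytochrome c genes were bound, Cyt-c-d at rank 374 and Cyt-c-p at 4625. Of 4 complex I assembly factor genes, which are not subunits, CIA30 was bound at rank 195 and ECSIT at 4995, and Nubpl and sicily were unbound.

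Duplicate copies in complexes II to V, taken as symbols ending in L or in L and a digit after the complex I paralogs had been seen, were bound in 0 of 18, which allows a share of up to 16.7%. Of these 18, 3 were head-to-head. In the genome 26.2% of all genes and 16.4% of genes that are not head-to-head were bound. Of the 18 copies, 8 had no region in any relaxed list, against 32.9% of all genes and 40.8% of genes that are not head-to-head. The other 35 genes of complexes II to V were bound in 20 (57.1%, Wilson interval 40.9 to 72.0%), against 12 of 34 complex I genes without paralogs (35.3%), and the intervals overlap.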

How the data were processed

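Peak lists from CG12155-eGFP ChIP-seq were used as deposited on dm6. Per the notes deposited with the files, regions were called relative to a control in each replicate and in the pooled replicates, and the optimal list passes IDR. Which aligner, caller and IDR threshold were used is not given in the sources used here. The signal of each region was set by the authors and was used only for ranks within a list. The deposited −log10 q-value column was not used. The control experiment was not analysed here. The dm3 lists were not used.

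Starts came from Ensembl release 115 (13945 protein-coding genes, 19253 TSS positions), and sequence from RefSeq. Assignment used Python 3.11.15, pandas 2.3.3 and numpy 2.4.6, with Wilson intervals from scipy 1.17.1, and was checked on simulated summits. A replicate held a peak if its 5202 strongest regions overlapped it by at least 1 bp. Replicate values come from each replicate's own 5202 strongest regions. With 1 group there was no comparison of conditions and no test, and depth per sample is unknown. Members and gene lists were chosen with earlier results of these data known. A member and its paralog are counted but not reported individually here. Named genes were the other members, and partners and genes of the other complexes by rank.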

Additional observations from a re-analysis of the deposited data

How the results depend on the processing

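The count of bound complex I genes stayed within 1.5 times of 12 under all alternatives run, from 8 with the strongest 50% of optimal peaks to 13 with a window of 1000 bp. Leaving out 1 replicate, by asking for support in both others, gave 9 to 10. The excess over all genes was 10.4 points with a window of 200 bp and 9.14 points without the 6 paralogs (chosen after seeing the data), and 1.30 to 3.40 points when 1 replicate was left out. The share of head-to-head members was 35.0% with the strongest 50% of peaks, with support by all 3 replicates and with that support over 50% of the peak, 45.0% with 1 TSS per gene, 45.5% with head-to-head starts within 1000 bp, and 35.0 to 40.0% when 1 replicate was left out. The share of the other members was 15% with a window of 1000 bp, 5.0% with the strongest 50% of peaks, 14.3% without paralogs, and 10% when any replicate was left out. The median distance was −45.0 bp with a window of 200 bp, −110 bp with the strongest 50% of peaks, −129 bp with support by all 3 replicates, −104 bp with support over 50% of the peak, −112 bp with 1 TSS per gene, and −129 to −104 bp when 1 replicate was left out. The excess over all genes and the median distance kept their sign under all alternatives run. The differences to the genome within each class were not rerun under these alternatives, so the class shares above have no genome share at the same setting. The share of all genes also fell, from 26.2% to 15.4% with the strongest 50% of peaks and 20.1% with support by all 3 replicates. For members that are not head-to-head, the replicate mean without paralogs was 16.7%, against 16.1% of all such genes. With paralogs it was 11.7%, so that difference did change sign. The cause of these shifts was not tested. The files give ranks and no read counts, so depth limits cannot be set. No paired analysis was possible because there is 1 group.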
